A study of Mus musculus with 8 samples.

Results

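A set of 9 nuclear proteins known to bind Aire or to act with it at chromatin, here called the Aire partners, was followed at the RNA level in embryonic thymic epithelial cells (TECs). They were chosen by gene name, with earlier results of these data known. All 9 were among the 55450 genes of the table: *Top1*, *Top2b*, *Prkdc*, *Parp1*, *Atf7ip*, *Mbd1*, *Chd4*, *Hipk2*, and *Cdk9*. The cells were CD45-EpCAM+ TECs sorted at embryonic day 17 (E17) from mouse embryos that carried both a tdTomato reporter in the *Ccl21a* locus, which encodes the chemokine CCL21, and a Venus reporter of *Tnfrsf11a*, which encodes the cytokine receptor RANK. All 3 populations carried both reporters, and the labels name no treatment. The sorts gave 3 libraries of CCL21+RANK- TECs (hereafter CCL21+), 3 of the CCL21-RANK+ population (RANK+), and 2 of cells without either signal, CCL21-RANK- (double-negative). A gate on a reporter selects cells by reporter protein, and the number of embryos behind each library is not given in the sources used here, so the p-values measure only the spread between these libraries. The libraries held 59677342, 46003149, and 55116934 counts in CCL21+ TECs, 57286773, 50146758, and 42751858 in RANK+ TECs, and 67451448 and 71625319 in double-negative TECs.

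Aire is a transcriptional regulator of mature medullary TECs (mTECs) that lets these cells transcribe many genes of other tissues, so that developing T cells meet those products in the thymus. It does not act like a factor bound to one DNA motif. It gathers enzymes that cut, mark, and remodel DNA and chromatin and that free paused RNA polymerase II, and the partners include such enzymes. The topoisomerases TOP1 and TOP2B relieve twist in DNA by transient breaks. DNA-PKcs, the product of *Prkdc*, and PARP1 are enzymes that sense DNA breaks. MBD1 binds methylated CpG and, with ATF7IP, forms a complex that has been linked to the recruitment of Aire. CHD4 is the ATPase of the NuRD chromatin remodeling complex. HIPK2 is a nuclear kinase that can phosphorylate Aire. CDK9 is the kinase of P-TEFb, which releases paused polymerase. The comparison asks whether RNA of these partners rises with *Aire* in RANK+ TECs or is held at a like level in all 3 populations.

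Levels are given as RPKM, the reads of a gene per length of its exons and per size of the library, with the size scaled by TMM, a factor that sets most genes equal between libraries. The genes of both reporters were checked against the labels. *Tnfrsf11a* was at 99.5, 92.6, and 103 RPKM in RANK+ TECs, against 9.06, 10.5, and 9.85 in CCL21+ TECs and 2.85 and 2.21 in double-negative TECs. *Ccl21a*, given as CPM, which leaves out length, because near-identical copies of the gene share reads, was at 504, 335, and 255 CPM in CCL21+ TECs, 119, 83.0, and 65.3 in RANK+ TECs, and 6.51 and 7.56 in double-negative TECs. The CCL21- label of the RANK+ cells therefore stands for the gate and not for an absence of reads assigned to *Ccl21a*, some of which may belong to its copies. Of 5 epithelial genes, *Epcam*, *Foxn1*, and *Krt8* were above 48 RPKM in every library. The other 2, *Krt5* and *Krt14*, were lowest in double-negative TECs, at 172 and 120 RPKM and at 8.72 and 7.58 RPKM. CCL21+ TECs and double-negative TECs both held high levels of cortical TEC genes, such as the protease gene *Prss16* at 1056, 1007, and 975 RPKM and at 940 and 901 RPKM, and RANK+ TECs held 65.4, 99.9, and 57.6 RPKM. In the edgeR test across all genes, 7 of 7 mature mTEC markers were higher in RANK+ than in CCL21+ TECs. By the same test 5 of 5 cortical markers were lower, where 30.6% of all tested genes were higher and 23.1% lower. The 7 include *Aire* itself and the gate gene *Tnfrsf11a*. They also include *Cd86*, at 0, 4, and 0 counts in CCL21+ TECs, which met the expression filter through the RANK+ libraries. The count of 7 therefore only checks the labels, and it lay between 5 and 7 over the alternative fits. Of the 5 epithelial genes, 1 was higher and 3 were lower.

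*Aire* (ENSMUSG00000000731.15, GRCm38 chromosome 10, 78030022 to 78043610, minus strand) was at 118, 93.5, and 109 RPKM in RANK+ TECs. It was at 0.828, 0.897, and 0.605 RPKM in CCL21+ TECs and at 0.880 and 0.118 RPKM in double-negative TECs. The RANK+ libraries stood apart from all others, and the 2 double-negative libraries differed from each other. In the quasi-likelihood test of edgeR, with p-values adjusted over all tested genes by the Benjamini-Hochberg method, *Aire* was 138-fold higher in RANK+ than in CCL21+ TECs (95% interval 57.2 to 333, adjusted p = 6.67e-06) and 218-fold higher than in double-negative TECs (adjusted p = 1.81e-05). On the log2 scale the latter difference was 7.77, and it was 9.81 without double-negative replicate 1 and 6.92 without replicate 2. Between the RANK- populations the log2 difference of *Aire* was 0.66 ± 0.56 (SE) with an adjusted p of 0.53, and without double-negative replicate 1 it was 2.70 with an adjusted p of 0.00383, and without replicate 2 it was -0.19. Exons of *Aire* overlap those of *Dnmt3l* on the opposite strand, and the setting for strand used in counting is not given in the sources used here.

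Of the partners, *Parp1* alone passed upward in RANK+ TECs. All 9 passed the expression filter, and in RANK+ over CCL21+ TECs 2 of the 9 passed an adjusted p of 0.05, *Parp1* in the upward and *Hipk2* in the downward direction. Of all 21451 genes tested, 53.7% passed in this comparison, 30.6% higher and 23.1% lower. The median log2 difference was -0.13 over the 9 partners and 0.11 over all tested genes, and under the alternative fits the median over the partners lay between -0.17 and 0.01. The median size of the log2 difference was 0.131 over the 9 partners and 0.850 over all tested genes, and the median standard error was 0.116 over the partners and 0.296 over all genes. The tested genes were not matched to the partners by level, and some, like *Cd86*, met the filter through the RANK+ libraries. These medians and shares are therefore not a yardstick for genes of like level. With at least 10 counts in every library, 4163 of 14615 genes were higher and 3962 lower. In RANK+ over double-negative TECs 2 of 9 passed as well, *Parp1* higher and *Top2b* lower, where 49.0% of all genes passed, 27.0% higher and 21.9% lower. Between CCL21+ and double-negative TECs 2 of 9 passed, *Hipk2* higher and *Parp1* lower in CCL21+ TECs, where 11.4% of genes passed, 6.28% higher and 5.15% lower. The 3 comparisons share libraries and are not independent of one another. With the fold change above 1.5 and the RPKM above 1 that the study also required, the latter applied here to the higher group, *Parp1* was the 1 partner called in each comparison, where 30.5%, 29.2%, and 8.06% of genes were called in the same order.

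**Figure D1:**
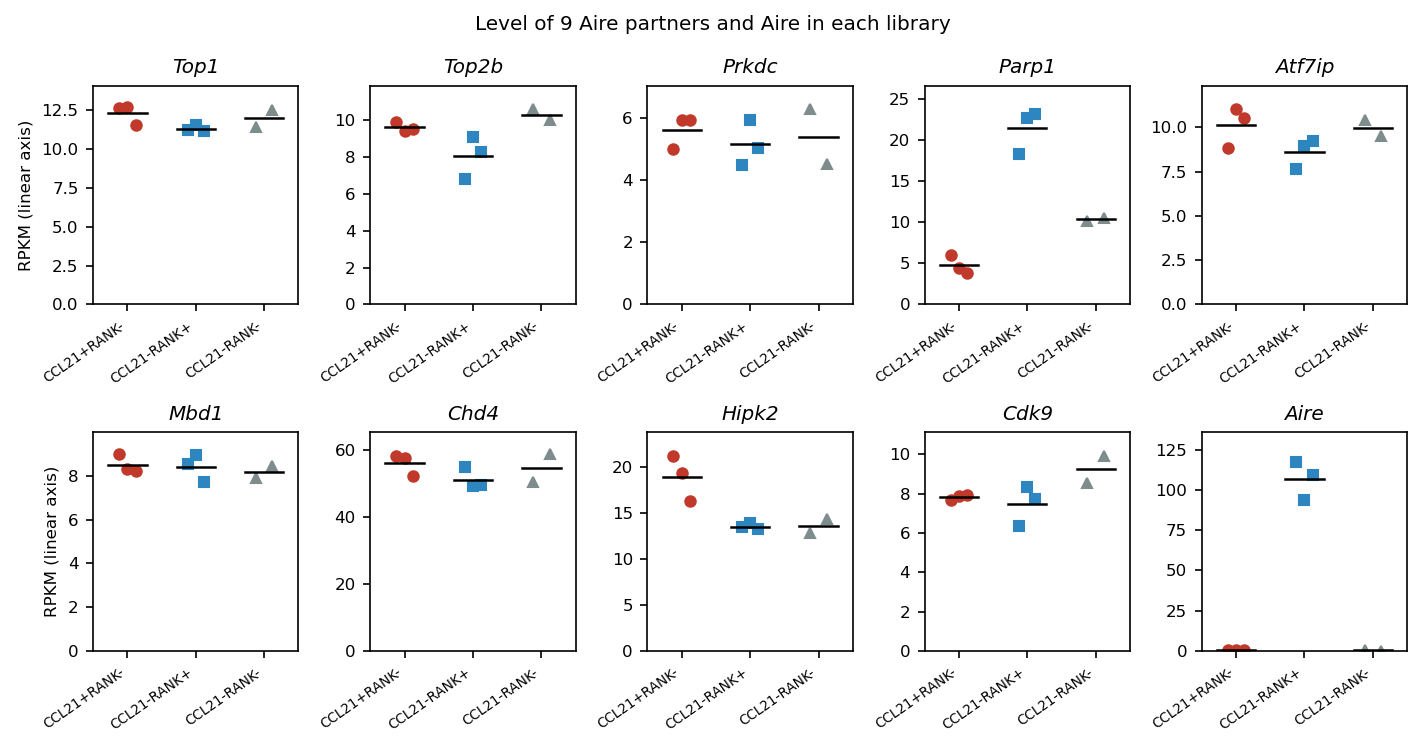
Level in RPKM (vertical linear axes from 0, one panel per gene) of the 9 Aire partners and of Aire in 3 CCL21+RANK- (red circles), 3 CCL21-RANK+ (blue squares), and 2 CCL21-RANK- libraries (gray triangles); points are libraries and black lines are group means. Aire lies between 93.5 and 118 RPKM in CCL21-RANK+ libraries and below 1 RPKM in all others, and of the partners Parp1 has its 3 CCL21-RANK+ points above all other points.

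The summed level of the 9 partners ranged from 126.1 to 138.6 RPKM over the libraries, at 138.5, 136.6, and 126.1 RPKM in CCL21+ TECs, 131.7, 138.5, and 135 RPKM in RANK+ TECs, and 128.7 and 138.6 RPKM in double-negative TECs. *Chd4* made the largest part of that sum. By level, the partners ranked between the 68.1 and 97.2 percentiles of tested genes over the 3 populations, so that all were detected where *Aire* was high and where it was low. In bulk RNA, fewer cells that express a gene and less of its RNA per cell cannot be told apart.

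*Parp1* (ENSMUSG00000026496.11, chromosome 1, 180568924 to 180601254, plus strand) encodes the main enzyme that adds poly(ADP-ribose) chains to proteins at DNA breaks. Its level was 18.3, 22.7, and 23.2 RPKM in RANK+ TECs, 10.1 and 10.6 RPKM in double-negative TECs, and 6.06, 4.45, and 3.85 RPKM in CCL21+ TECs. The 3 populations formed 3 steps without overlap, with double-negative TECs in the middle. *Parp1* was 4.47-fold higher in RANK+ than in CCL21+ TECs (95% interval 3.43 to 5.82, adjusted p = 6.24e-06) and 2.07-fold higher than in double-negative TECs (95% interval 1.54 to 2.77, adjusted p = 0.00138). It was 2.16-fold lower in CCL21+ than in double-negative TECs (adjusted p = 0.00435). The RANK- populations did not overlap in *Parp1*, whereas they overlapped in *Aire*. *Parp1* passed in all 3 comparisons under each of 17 alternative fits, which changed the scaling, the filter, the tool, or the design, or left out a library.

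Genes of the cell cycle were low in CCL21+ TECs, as *Parp1* was. Of 12 S and G2/M markers, 12 were higher in RANK+ than in CCL21+ TECs and 11 were lower in CCL21+ than in double-negative TECs, where 30.6% and 5.15% of all genes passed in these directions. Between RANK+ and double-negative TECs, where *Parp1* rose 2.07-fold, 3 of the 12 were higher and 9 did not pass, a share near the 27.0% of all genes that were higher. The median log2 difference of the 12 was nonetheless 0.466 (0.264 to 0.659 over the alternative fits), against 0.062 over all genes. The 11 became 5 without either double-negative library, and the 3 became 1 without RANK+ replicate 2 or double-negative replicate 1, 2 without RANK+ replicate 3 or double-negative replicate 2, and 6 without RANK+ replicate 1. Their summed level was 84.8, 79.9, and 86.9 RPKM in CCL21+ TECs, 178.4, 271.8, and 242.1 RPKM in RANK+ TECs, and 165.0 and 184.0 RPKM in double-negative TECs. *Pcna*, which encodes the sliding clamp of replication, was the most abundant marker in every library, at 23.9 to 29.1, 40.7 to 55.6, and 41.9 to 45.7 RPKM in the same order of populations, and no marker was at 0. The part of cell division in the *Parp1* difference was not tested.

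The promoters of *Parp1*, of *Top1* as a partner whose difference did not pass, and of *Aire* are printed to show what the rising partner shares with either. Each is the 250 bases before the RefSeq start on GRCm38.p6, with capitals for the GC box (GGGCGG or its reverse complement CCGCCC), the CCAAT box (CCAAT or ATTGG), and the TATA box (TATAAA or TTTATA), which were searched on both strands. *Parp1* lies at chr1:180568641-180568890 on the plus strand, *Top1* at chr2:160645647-160645896 on the plus strand, and *Aire* at chr10:78043611-78043860 on the minus strand.
Parp1: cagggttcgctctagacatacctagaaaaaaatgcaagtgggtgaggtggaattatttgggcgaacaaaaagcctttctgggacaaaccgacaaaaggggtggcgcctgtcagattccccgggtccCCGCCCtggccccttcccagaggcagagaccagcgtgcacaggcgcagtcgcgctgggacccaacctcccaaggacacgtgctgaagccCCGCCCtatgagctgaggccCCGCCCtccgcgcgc
Top1: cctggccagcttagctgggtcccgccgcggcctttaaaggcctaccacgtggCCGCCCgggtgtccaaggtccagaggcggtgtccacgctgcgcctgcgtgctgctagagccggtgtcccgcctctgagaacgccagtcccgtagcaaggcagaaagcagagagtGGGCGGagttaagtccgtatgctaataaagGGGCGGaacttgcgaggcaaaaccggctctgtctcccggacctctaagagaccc
Aire: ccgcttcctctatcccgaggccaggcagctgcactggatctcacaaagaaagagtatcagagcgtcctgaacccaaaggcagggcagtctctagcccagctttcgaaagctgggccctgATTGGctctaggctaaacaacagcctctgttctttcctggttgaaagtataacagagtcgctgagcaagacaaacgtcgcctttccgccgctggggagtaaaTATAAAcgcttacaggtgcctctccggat
The *Parp1* and *Top1* windows each held 3 GC boxes and no CCAAT or TATA box, with 16 and 20 CpG. The *Aire* window held no GC box, 1 CCAAT box, and 1 TATA box, with 11 CpG. RefSeq gave 9 such windows for 7 of the 9 partners. A GC box was found in 8 of the 9 windows, a CCAAT box in 4, and a TATA box in 0, while 32.7%, 33.8%, and 12.4% of all 32851 windows held them. The windows of *Chd4* (125095731 to 125095980 and 125095913 to 125096162) overlap and share a GC box. Counted by gene, 7 partners had a GC box. The CpG count of the 9 windows ran from 1 to 43, and over all windows the median was 6. A GC box holds a CpG, so its share is not independent of the CpG content.

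*Hipk2* (chromosome 6, 38694390 to 38876165, minus strand) was the partner that fell in RANK+ relative to CCL21+ TECs. It was at 21.2, 19.4, and 16.3 RPKM in CCL21+ TECs, at 13.5, 13.9, and 13.2 RPKM in RANK+ TECs, and at 12.9 and 14.4 RPKM in double-negative TECs. The CCL21+ libraries were the high group, and the other populations overlapped. *Hipk2* was 1.40-fold lower in RANK+ than in CCL21+ TECs (log2 difference -0.49, 95% interval -0.74 to -0.23, adjusted p = 0.00524), a call kept in all 17 alternative fits. It was 1.39-fold higher in CCL21+ than in double-negative TECs (95% interval 1.14 to 1.70, adjusted p = 0.0411), a call lost in 6 of 17 alternative fits, which were library totals and the fits without CCL21+ replicates 1 or 2, RANK+ replicate 3, or double-negative replicates 1 or 2, with adjusted p up to 0.29 when a library was left out. Between RANK+ and double-negative TECs the log2 difference was -0.01 (95% interval -0.29 to 0.27, adjusted p = 0.962).

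Parathyroid genes, like *Hipk2*, were high in CCL21+ TECs. All 5 markers were lower in RANK+ than in CCL21+ TECs and higher in CCL21+ than in double-negative TECs, where 23.1% and 6.28% of all genes passed in these directions. Between RANK+ and double-negative TECs, where the log2 difference of *Hipk2* was -0.01, 2 of the 5 were higher and 1 was lower, and without double-negative replicate 2 there was 1 in each direction. Their summed level was 7383, 1955, and 1885 RPKM in CCL21+ TECs and 12.9 to 26.5 RPKM in the other 5 libraries, no marker was at 0, and *Chga*, which encodes a granule protein of endocrine cells, was the most abundant in the CCL21+ libraries. CCL21+ replicate 1, with the highest sum, also had the highest *Hipk2*. Without it the log2 difference of RANK+ from CCL21+ TECs was -0.40 for *Hipk2* (adjusted p = 0.0193) and 2.37 for *Parp1*. The CCL21+ libraries kept in that fit had parathyroid sums of 1955 and 1885 RPKM. The part of parathyroid cells in the *Hipk2* difference was not tested.

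Thymocyte genes were low in all libraries, but 4 of 8 markers were higher in RANK+ than in CCL21+ TECs and 7 of 8 were higher than in double-negative TECs, where 30.6% and 27.0% of all genes were higher. The 4 became 2, a share near that of all genes, without CCL21+ replicate 2 or 3 or RANK+ replicate 3, and the 7 became 3 without double-negative replicate 2. Their summed level was 18.1, 9.05, and 16.0 RPKM in RANK+ TECs, 10.9, 5.07, and 5.92 RPKM in CCL21+ TECs, and 3.92 and 3.13 RPKM in double-negative TECs, with *Rag1* or *Lck* as the most abundant. *Ptprc*, the CD45 gene excluded by the sort, was at no more than 0.517 RPKM in any library, and *Ptcra* was at 0 in CCL21+ replicates 2 and 3. The 5 dendritic and B cell markers summed to 2.13, 0.611, and 1.01 RPKM in RANK+ TECs and to at most 0.146 RPKM elsewhere, with *Cd79a* or *Flt3* as the most abundant in RANK+ TECs, and in those cells none was at 0. *Cd79a* was at 0 in all 3 CCL21+ libraries and in double-negative replicate 1. RANK+ replicate 2 had the lowest sum of both lists among the RANK+ libraries and 22.7 RPKM of *Parp1*. The part of these cells in the differences of the partners was not tested.

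**Figure D2:**
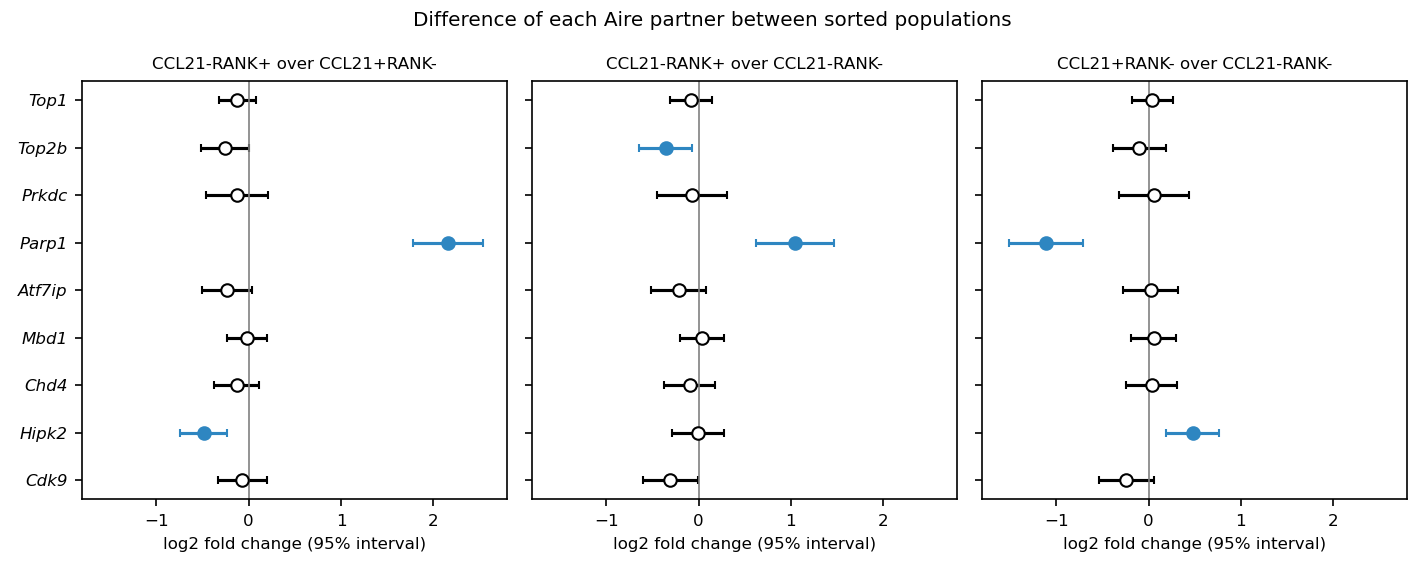
Log2 fold change (horizontal axis) of each Aire partner (rows) in the 3 comparisons, with bars for the 95% interval from edgeR; filled blue points passed an adjusted p of 0.05 and open points did not. Parp1 is far from 0 in all 3 panels, and most other intervals cross 0.

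The 7 partners other than *Parp1* and *Hipk2* did not pass between RANK+ and CCL21+ TECs. Their log2 differences ran from -0.26 to -0.02, with adjusted p from 0.0893 to 0.888. The highest upper bound of a 95% interval was 1.16-fold, for *Prkdc*, and the lowest lower bound was 0.70-fold, for *Top2b*. Over all tested genes the median log2 difference was 0.11, and other scalings moved it to between 0.19 and 0.23, so that the smaller of these negative values depend on the scaling. Over the 17 alternative fits, *Top2b* stayed between -0.35 and -0.12 and *Atf7ip* between -0.32 and -0.10. With the highest of the alternative fits on all libraries, the upper bound of these 7 reached 1.30-fold.

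In RANK+ over CCL21+ TECs, the counts of the gene lists built around the partners stand against 30.6% of all genes higher and 23.1% lower, and shares near these are not particular to a list. The lists were drawn up with earlier results of these data known, so shares away from these are descriptive only. Of the topoisomerase genes, the form of dividing cells rose and the partner forms did not. *Top2b* (chromosome 14, 16365179 to 16435462, plus strand), the isoform that nondividing cells also make, was at 6.76, 9.09, and 8.23 RPKM in RANK+ TECs, 9.88, 9.38, and 9.48 RPKM in CCL21+ TECs, and 10.6 and 9.96 RPKM in double-negative TECs. All 3 RANK+ values lay below the others, with replicate 2 near them. Against double-negative TECs the log2 difference was -0.35 (95% interval -0.64 to -0.07, adjusted p = 0.0441), a call that held in 2 of 17 alternative fits, the removal of *Gm26917* and *Gm42418*, a pair of genes that take a large share of each library's counts, and the fit without RANK+ replicate 2. When any other library was left out the adjusted p lay between 0.0548 and 0.199. Without RANK+ replicate 2 it was 0.0163, and *Top2b* then also passed against CCL21+ TECs (log2 difference -0.35, adjusted p = 0.0295), where with all libraries it did not (log2 difference -0.26, adjusted p = 0.0893).

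*Top1* (chromosome 2, 160645888 to 160722764, plus strand) was at 12.6, 12.7, and 11.6 RPKM in CCL21+ TECs, 11.2, 11.5, and 11.1 RPKM in RANK+ TECs, and 11.4 and 12.5 RPKM in double-negative TECs. Its log2 difference between RANK+ and CCL21+ TECs was -0.12 (95% interval -0.32 to 0.08, adjusted p = 0.278). By contrast *Top2a*, the isoform of dividing cells, was at 27.1, 45.4, and 36.3 RPKM in RANK+ TECs, 7.97, 9.19, and 10.3 RPKM in CCL21+ TECs, and 23.3 and 25.6 RPKM in double-negative TECs. It was 3.96-fold higher in RANK+ than in CCL21+ TECs (adjusted p = 1.68e-05). The mitochondrial form *Top1mt* fell by 1.00 on the log2 scale (adjusted p = 0.00275). Of the 6 topoisomerase genes, *Top2a* rose, *Top1mt* fell, and 4 did not pass, and without RANK+ replicate 2 the number that fell was 3.

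*Prkdc* (chromosome 16, 15637866 to 15842235, plus strand) was at 4.51, 5.93, and 5.04 RPKM in RANK+ TECs, 5.00, 5.93, and 5.96 RPKM in CCL21+ TECs, and 6.31 and 4.51 RPKM in double-negative TECs, and all 3 populations overlapped. Its log2 difference between RANK+ and CCL21+ TECs was -0.13 (95% interval -0.46 to 0.21, adjusted p = 0.508). DNA-PKcs works with the Ku heterodimer, and the gene of one Ku subunit changed far more than *Prkdc* did. *Xrcc5*, which encodes Ku80, was at 7.24, 12.8, and 10.4 RPKM in RANK+ TECs, 38.4, 49.7, and 53.3 RPKM in CCL21+ TECs, and 61.8 and 63.1 RPKM in double-negative TECs. The RANK+ libraries were all below the lowest other library. *Xrcc5* was 4.66-fold lower than in CCL21+ TECs (adjusted p = 1.46e-05) and 6.18-fold lower than in double-negative TECs (adjusted p = 1.00e-05). *Xrcc6*, the gene of Ku70, was at 4.97, 5.56, and 6.29 RPKM in RANK+ TECs, 3.89, 4.47, and 4.66 RPKM in CCL21+ TECs, and 5.95 and 6.75 RPKM in double-negative TECs, so that the CCL21+ libraries were the low group. It was 1.29-fold higher in RANK+ than in CCL21+ TECs (adjusted p = 0.0375), and against double-negative TECs the log2 difference was -0.18 (adjusted p = 0.335). Against CCL21+ TECs, the end-joining ligase gene *Lig4* was 1.39-fold higher and its cofactor gene *Xrcc4* 1.43-fold higher (adjusted p = 0.0175 and 0.0404). *Xrcc6* was no longer called when any library but RANK+ replicate 1 or CCL21+ replicate 3 was left out (adjusted p 0.0545 to 0.111), and *Xrcc4* was no longer called without CCL21+ replicate 1 or 3, RANK+ replicate 2, or either double-negative library (adjusted p 0.0623 to 0.127). Of the 8 genes of DNA-PK and end joining, 3 rose, 1 fell, and 4 did not pass, near the 53.7% of all genes that passed and the 30.6% that were higher, and 1 rose without CCL21+ replicate 1, RANK+ replicate 2, or either double-negative library.

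In the PARP and single-strand break repair list, 2 of 7 genes rose, 1 fell, and 4 did not pass between RANK+ and CCL21+ TECs. Besides *Parp1*, *Hpf1*, whose product directs PARP1 to serine, was 1.45-fold higher (adjusted p = 0.0151, and 0.0561 without CCL21+ replicate 2). It was at 4.97, 4.81, and 5.47 RPKM in RANK+ TECs, 3.00, 3.18, and 4.36 RPKM in CCL21+ TECs, and 6.46 and 6.90 RPKM in double-negative TECs, so that the RANK+ libraries lay below the double-negative ones (log2 difference -0.39, adjusted p = 0.0793) and the CCL21+ libraries were the lowest. *Adprhl2*, which encodes the hydrolase that removes ADP-ribose from serine, was at 9.31, 14.5, and 13.6 RPKM in RANK+ TECs against 27.2, 27.3, and 30.2 RPKM in CCL21+ TECs, 2.26-fold lower (adjusted p = 0.000188).

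In the main fit, with TMM and the default filter, *Mbd1* had the smallest log2 difference of the partners between RANK+ and CCL21+ TECs. Its means ± SD were 8.51 ± 0.434 (n = 3), 8.40 ± 0.637 (n = 3), and 8.18 ± 0.387 RPKM (n = 2) in CCL21+, RANK+, and double-negative TECs. That difference was -0.02 (95% interval -0.23 to 0.20, adjusted p = 0.888). Other fits changed the order, and with at least 10 counts in every library it was 0.12, against 0.0065 for *Prkdc*. *Atf7ip* (chromosome 6, 136506167 to 136610862, plus strand) was at 7.65, 8.93, and 9.24 RPKM in RANK+ TECs and at 8.84, 11.0, and 10.5 RPKM in CCL21+ TECs, with a log2 difference of -0.24 (95% interval -0.50 to 0.03, adjusted p = 0.125). Double-negative TECs were at 10.4 and 9.53 RPKM, and the RANK+ and CCL21+ libraries overlapped. In the list of the MBD1-ATF7IP complex and the methyltransferase SETDB1, 2 of 8 genes rose and 0 fell. *Setdb1* and the corepressor gene *Trim28* did not pass, at 1.15-fold and 1.13-fold (adjusted p = 0.147 and 0.440), and both passed without RANK+ replicate 1 (adjusted p = 0.0406 and 0.0398). Those that rose were *Cbx5*, the gene of the heterochromatin protein HP1-alpha, at 1.44-fold (adjusted p = 0.0273), with a log2 difference of 0.04 from double-negative TECs (adjusted p = 0.887), and *Atf7ip2*, which had 14, 25, and 11 counts in RANK+ against 2, 0, and 5 in CCL21+ TECs. Double-negative TECs had 15 and 29 counts of *Atf7ip2*, so that the CCL21+ libraries were the low group, and the log2 difference of RANK+ from double-negative TECs was 0.00 (adjusted p = 0.999). *Cbx5* was no longer called without CCL21+ replicate 2 or 3 or RANK+ replicate 2 or 3 (adjusted p 0.0552 to 0.0941), nor *Atf7ip2* without any library but CCL21+ replicate 3 or RANK+ replicate 1 (0.0515 to 0.0939). The number that rose was 0 without CCL21+ replicate 2 or RANK+ replicate 2 or 3, 1 without CCL21+ replicate 1 or 3 or either double-negative library, and 6 without RANK+ replicate 1. Of the 7 methyl-CpG binding genes, *Mbd1* included, 4 fell and 0 rose in every fit, where 23.1% of all genes were lower in the main fit. *Mbd2* was at 7.45, 7.31, and 6.29 RPKM in RANK+ against 18.0, 16.9, and 15.6 RPKM in CCL21+ TECs, 2.40-fold lower (adjusted p = 9.34e-06), and *Mbd6* was 1.70-fold lower (adjusted p = 0.000578).

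*Chd4* (chromosome 6, 125095981 to 125130591, plus strand) was the most abundant partner per length, at 54.8, 49.2, and 49.5 RPKM in RANK+ TECs, 58.2, 57.6, and 52.3 RPKM in CCL21+ TECs, and 50.5 and 58.8 RPKM in double-negative TECs. The groups overlapped, and the log2 difference between RANK+ and CCL21+ TECs was -0.13 (95% interval -0.38 to 0.12, adjusted p = 0.350). In the NuRD list, 2 of 14 genes rose, 5 fell, and 7 did not pass. *Mbd2*, a NuRD subunit, and *Mta1*, 1.62-fold lower (adjusted p = 0.00274), fell the most. *Hdac2*, a deacetylase subunit, was 1.33-fold higher than in CCL21+ TECs (adjusted p = 0.0107), with a log2 difference of 0.06 from double-negative TECs (adjusted p = 0.737), and *Chd5* rose from 0, 7, and 4 counts to 91, 37, and 20 counts, with an adjusted p of 0.0692 without CCL21+ replicate 3 and 0.0749 without RANK+ replicate 1. Double-negative TECs had 19 and 4 counts of *Chd5*, and the log2 difference of RANK+ TECs from them, 2.27, did not pass (adjusted p = 0.150). With so few counts elsewhere, *Chd5* met the expression filter mainly through the RANK+ libraries, so the filter partly set its direction. The number of NuRD genes that rose was 1 without CCL21+ replicate 3 or with the replicate number as a block, 3 without CCL21+ replicate 2 or RANK+ replicate 1 and with other scalings, and 4 with DESeq2's Wald test.

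In the HIPK family, 3 of 4 kinase genes, *Hipk2* among them, fell and 0 rose, where 23.1% of all genes were lower. With library totals as the scaling 2 fell, where 3969 of 21451 genes were lower. *Hipk3* was at 38.6, 40.5, and 36.5 RPKM in RANK+ against 61.3, 62.5, and 65.7 RPKM in CCL21+ TECs, 1.64-fold lower (adjusted p = 0.000469).

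*Cdk9* (chromosome 2, 32705784 to 32713076, minus strand) was at 6.37, 8.33, and 7.71 RPKM in RANK+ TECs, 7.68, 7.86, and 7.92 RPKM in CCL21+ TECs, and 8.56 and 9.91 RPKM in double-negative TECs. It was highest in both double-negative libraries, but the log2 difference of RANK+ over double-negative TECs, -0.31, had an adjusted p of 0.0824 and passed only without RANK+ replicate 2 (adjusted p = 0.0430). Against CCL21+ TECs it was -0.07 (95% interval -0.34 to 0.20, adjusted p = 0.667). The gene of its cyclin, *Ccnt1*, was as level, with a log2 difference of -0.07 (adjusted p = 0.634). *Hexim1*, whose product holds P-TEFb inactive, was at 15.9, 18.8, and 20.6 RPKM in RANK+ TECs, 38.6, 42.1, and 46.5 RPKM in CCL21+ TECs, and 47.5 and 48.2 RPKM in double-negative TECs. It was 2.30-fold lower than in CCL21+ TECs (adjusted p = 2.59e-05) and 2.60-fold lower than in double-negative TECs (adjusted p = 2.28e-05). *Aff4*, the scaffold of the super elongation complex, was 1.77-fold lower than in CCL21+ TECs (adjusted p = 0.000110). *Supt4a*, which encodes a subunit of the elongation factor DSIF, was 1.48-fold higher (adjusted p = 0.00223). Of 18 genes of P-TEFb and elongation control, 1 rose, 7 fell, and 10 did not pass, where 30.6% of all genes were higher and 23.1% lower. With library totals 4 fell, a share near that of all genes in that fit, where 3969 of 21451 were lower.

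**Figure D3:**
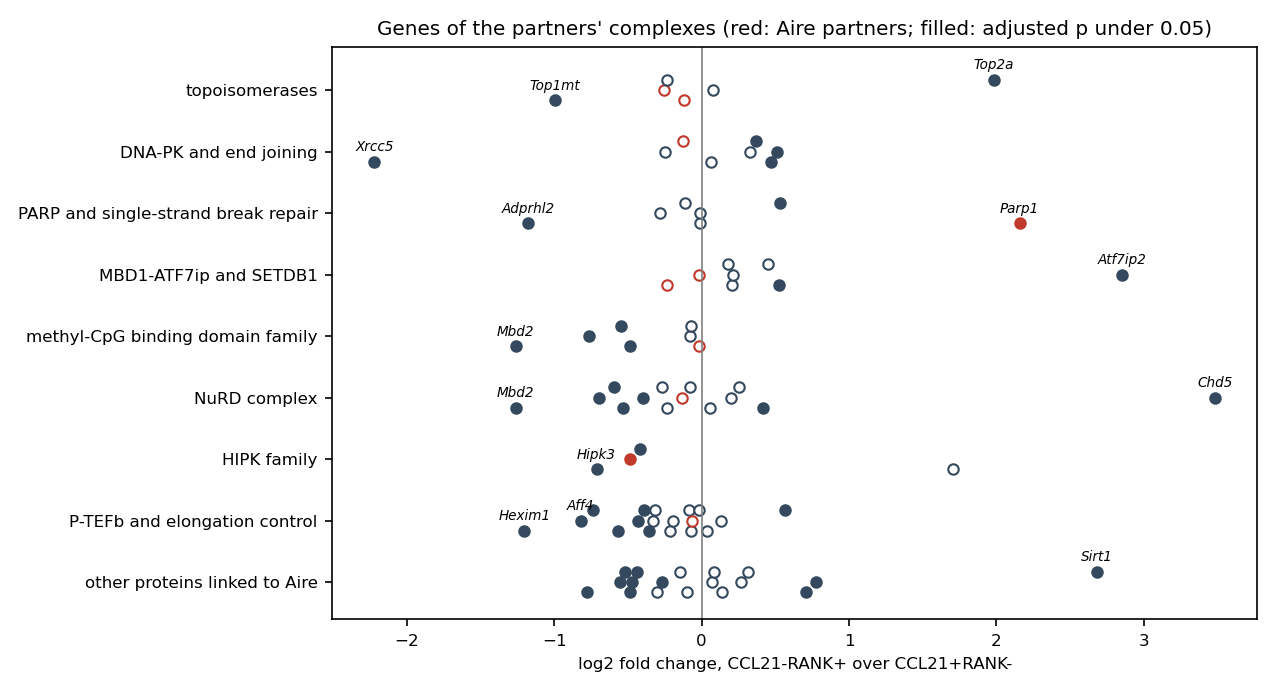
Log2 fold change of CCL21-RANK+ over CCL21+RANK- TECs (horizontal axis) for the genes of 9 lists built around the partners (rows); red points are Aire partners, dark points the other genes, and filled points passed an adjusted p of 0.05. Xrcc5, Mbd2, Hexim1, Top2a, and Sirt1 lie far from 0 while most red points, Parp1 excepted, lie near it.

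The median log2 difference of a list, against 0.11 over all genes, was -0.48 for the methyl-CpG binding family (-0.54 to -0.34 over the alternative fits), -0.45 for the HIPK family (-0.51 to -0.33), -0.27 for P-TEFb (-0.30 to -0.13), -0.18 for NuRD (-0.21 to -0.06), and -0.18 for the topoisomerases (-0.22 to -0.04). It was 0.20 for DNA-PK and end joining (0.10, without RANK+ replicate 3, to 0.33) and 0.21 for MBD1 and SETDB1 (0.15 to 0.38, the latter without RANK+ replicate 1). For PARP it was -0.01 and took either sign, from -0.12 without RANK+ replicate 2 to 0.12 with at least 10 counts in every library.

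Among 18 other genes whose products have been linked to Aire, 3 rose, 7 fell, and 8 did not pass, whereas 5 rose and 6 fell with DESeq2's size factors or without RANK+ replicate 1, and 4 rose and 4 fell with library totals. *Sirt1*, which encodes a deacetylase that acts on Aire, was at 25.9, 22.3, and 26.6 RPKM in RANK+ TECs, 3.39, 4.39, and 3.88 RPKM in CCL21+ TECs, and 4.90 and 3.69 RPKM in double-negative TECs. Like *Aire*, and unlike *Parp1*, its values in the 2 RANK- populations overlapped. *Sirt1* was 6.42-fold higher than in CCL21+ TECs (adjusted p = 1.02e-06) and 5.81-fold higher than in double-negative TECs (adjusted p = 3.27e-06). *Rad21*, a cohesin gene, was 1.71-fold higher (adjusted p = 0.000271). The acetyltransferase gene *Crebbp* was 1.39-fold lower (adjusted p = 0.00726, and 0.0575 with library totals), *Daxx*, which encodes a histone chaperone, was 1.72-fold lower (adjusted p = 9.87e-05), and the ubiquitin ligase gene *Fbxo3* was 1.47-fold lower (adjusted p = 0.00238). The splicing factor gene *Hnrnpl* and the helicase gene *Ddx5* did not pass, with log2 differences of 0.07 and -0.15 (adjusted p = 0.683 and 0.259).

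**Figure D4:**
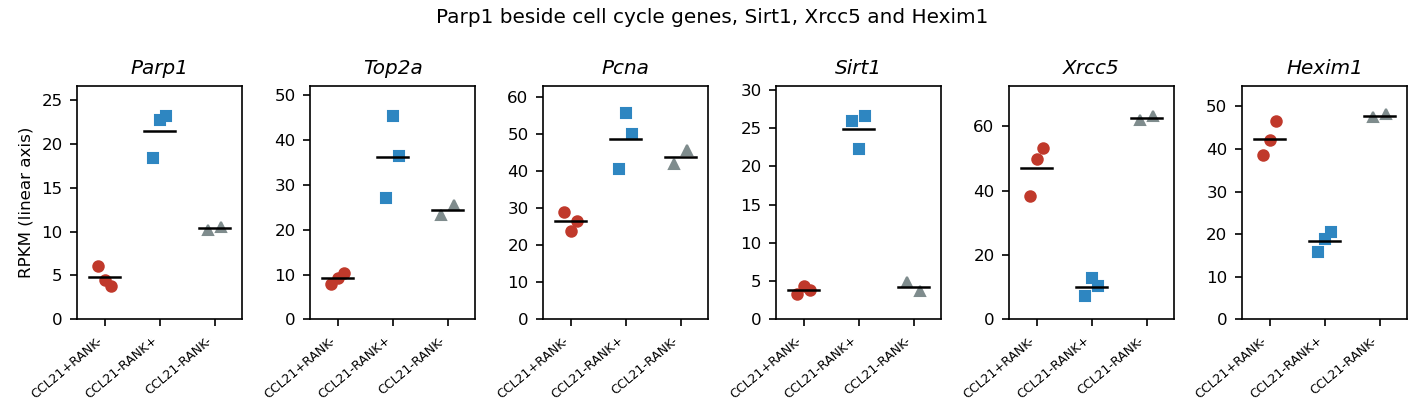
Level in RPKM (vertical linear axes from 0) of Parp1, Top2a, Pcna, Sirt1, Xrcc5, and Hexim1 in each library of the 3 populations; points are libraries and black lines are group means. Parp1, Top2a, and Pcna are lowest in CCL21+RANK- libraries, whereas Sirt1 is high, and Xrcc5 and Hexim1 are low, in CCL21-RANK+ libraries alone.

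**Figure D5:**
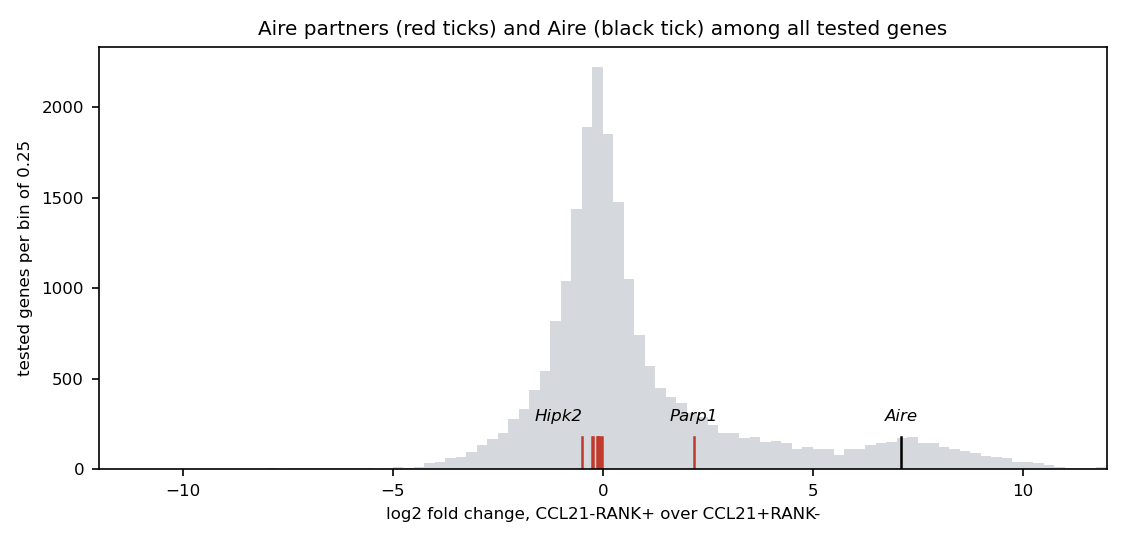
Number of tested genes (vertical axis) by log2 fold change of CCL21-RANK+ over CCL21+RANK- TECs (horizontal axis, bins of 0.25), with red ticks for the 9 Aire partners and a black tick for Aire. Of the 9 partners, 8 lie between -0.49 and -0.02 and Parp1 lies at 2.16, and Aire lies at 7.11.

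The genes whose log2 level over the 8 libraries was most like that of each partner were named among 10890 genes with a mean CPM of at least 5. The 8 points share libraries and populations, and these values of Pearson's r are descriptive. For *Parp1* they were *Maoa* (r = 0.993), *Tmod3* (0.992), and *Efcab11* (0.991). For *Hipk2* they were *Epb41l2* (0.984), *Arhgef10* (0.977), and *Postn* (0.975), and for *Top2b* they were *Heatr5a* (0.986), *Morf4l1* (0.985), and *Pdcd11* (0.981). For *Chd4* they were *Scaf11* (0.963), *Ier2* (0.957), and *Smc1a* (0.934), and for *Cdk9* they were *Tmem138* (0.983), *Rfc3* (0.977), and *Dph1* (0.974). For *Top1* they were *Svil* (0.958), *Zfp36* (0.944), and *Mrtfa* (0.943), and for *Atf7ip* they were *BX649560.1* (0.980), *Pcdhga8* (0.959), and *Cdk13* (0.958). *Prkdc* was nearest to *Atg16l1* (0.951), *Zfp280d* (0.909), and *Itch* (0.885), and *Mbd1* to *Tmem254b* (0.938), *Dnajc2* (0.863), and *Ankrd13a* (0.849). No partner was among the 3 genes nearest to *Aire*, which were *Grid1* (0.997), *Krt9* (0.996), and *Wdr44* (0.996). With only 3 of 10890 genes named, this does not show how closely any partner followed *Aire*.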

How the data were processed

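The authors deposited one table of RSEM expected counts for 55450 genes. The sample records name bcl2fastq 2.20, Trimmomatic, STAR 2.5.1, RSEM 1.3.1, the build mm10, and a NEBNext directional kit, whereas the study's methods name a TruSeq stranded kit and CLC Genomics Workbench. Duplicate reads and molecules could not be distinguished. Counts were rounded, since 4.47% to 5.94% of a library's values had a fractional part. Counts were tested in edgeR 4.0.16 (R 4.3.3) with TMM, the default expression filter (21451 genes), one model of 3 group means over 8 libraries, and Benjamini-Hochberg adjustment, after checks on simulated data. At a common biological coefficient of variation of 0.326, the spread between replicates exceeded counting error. RPKM used TMM-scaled library sizes, since *Gm26917* took 6.89% to 19.41% and *Gm42418* 1.47% to 10.73% of a library, and exon lengths of GENCODE M21 (GRCm38), which held all identifiers. Intervals of 95% came from the quasi-likelihood F.

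The partners and gene lists were chosen with earlier results of these data known. Named genes were the partners, *Aire*, the 2 genes of each list with the largest differences that passed in each direction, 12 further genes, 1 of them not reported here (*Top2a*, *Xrcc5*, *Xrcc6*, *Setdb1*, *Trim28*, *Ccnt1*, *Hexim1*, *Crebbp*, *Sirt1*, *Hnrnpl*, *Ddx5*), and the 3 nearest genes of each partner. *Ccl21a*, *Dnmt3l*, and the marker genes named were added as checks. Alternatives were DESeq2's size factors and Wald test (1.42.0), upper-quartile scaling, other filters, the compared groups alone, the replicate number as a block, no *Gm26917* or *Gm42418*, the thresholds of the study, each library left out, and, chosen after seeing the data, library totals.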

Additional observations from a re-analysis of the deposited data

How the results depend on the processing

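*Parp1* passed in all 3 comparisons, and *Hipk2* in RANK+ over CCL21+ TECs, under each of the 17 alternative fits. The number of partners passing in RANK+ over CCL21+ TECs was 2 in all alternatives but the thresholds of the study, which gave 1, and the fit without RANK+ replicate 2, and ranged from 2 to 3 when a library was left out. Over double-negative TECs it was 1 in all alternatives but the removal of *Gm26917* and *Gm42418*, which gave 2, and ranged from 1 to 3 when a library was left out. In CCL21+ over double-negative TECs it was 1 with the thresholds of the study and with library totals, 2 in the other fits on all libraries, and 1 to 2 when a library was left out. Those thresholds left 6540, 6255, and 1729 of all genes. Leaving out a library gave 10032 to 10926, 6814 to 10568, and 753 to 3519 genes, the fewest in the last comparison without double-negative replicate 2 (753) and replicate 1 (921), and 1597 without CCL21+ replicate 1. DESeq2's Wald test passed 3685 genes in that comparison. A fit that left 1 double-negative library assumed that it varies like the other groups.

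CCL21+ and RANK+ libraries of the same number deviated from their group means with correlations of 0.126, 0.0485, and 0.0707. Those of different numbers had correlations from -0.0984 to 0.041. Double-negative libraries had correlations from -0.117 to -0.0411 with CCL21+ and RANK+ libraries of the same number. The sources do not state that the numbers pair libraries, so the main fit did not pair them, and these correlations do not settle the question. With the replicate number as a block, 2, 1, and 2 partners and 10795, 9430, and 2532 genes passed, and *Hipk2* in RANK+ over double-negative TECs was at 0.054 and *Atf7ip* in CCL21+ over double-negative TECs at -0.029 on the log2 scale.

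Of 1086 single-gene values, 65 changed sign, and 0 of these passed on either side. In RANK+ over CCL21+ TECs the log2 difference of *Mbd1* was 0.071 with DESeq2's size factors, 0.071 with its Wald test, 0.061 with upper quartiles, 0.12 with at least 10 counts in every library, 0.10 with library totals, 0.032 without a filter, and 0.0078 without *Gm26917* and *Gm42418*. In the first 5 of these it was 0.016, 0.016, 0.010, 0.067, and 0.046 for *Cdk9* and 0.013, 0.013, 0.0068, 0.063, and 0.042 for *Ccnt1*. With at least 10 counts it was 0.016 for *Top1*, 0.0065 for *Prkdc*, and 0.0094 for *Chd4*. Over double-negative TECs, under the same 5, it was 0.057, 0.057, 0.035, 0.12, and 0.033 for *Top1*, 0.068, 0.068, 0.044, 0.13, and 0.056 for *Prkdc*, 0.047, 0.047, 0.025, 0.11, and 0.021 for *Chd4*, and 0.13, 0.13, 0.11, 0.20, and 0.11 for *Hipk2*, which was 0.043 without a filter and 0.032 without *Gm26917* and *Gm42418*. When a library was left out, the values in RANK+ over CCL21+ TECs ranged from -0.063 to 0.078 for *Mbd1*, -0.15 to 0.042 for *Cdk9*, -0.16 to 0.043 for *Ccnt1*, and -0.0059 to 0.21 for *Hnrnpl*. Over double-negative TECs they ranged from -0.29 to 0.18 for *Prkdc*, -0.019 to 0.14 for *Mbd1*, -0.21 to 0.022 for *Chd4*, and -0.096 to 0.077 for *Hipk2*. In CCL21+ over double-negative TECs they ranged from -0.027 to 0.10 for *Top1*, -0.17 to 0.32 for *Prkdc*, -0.046 to 0.11 for *Atf7ip*, -0.073 to 0.15 for *Chd4*, and -0.19 to 2.70 for *Aire*. The cause of these changes was not tested.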
